A study of Homo sapiens with 18 samples.

Results

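The proteasome is the barrel-shaped protease that degrades proteins marked with ubiquitin. A 20S core of alpha and beta rings holds the catalytic subunits, a 19S cap of ATPases and non-ATPase subunits unfolds substrates, and dedicated chaperones assemble both. Interferon exchanges the catalytic subunits PSMB5, PSMB6 and PSMB7 for PSMB8, PSMB9 and PSMB10, in the order PSMB8 for PSMB5, PSMB9 for PSMB6 and PSMB10 for PSMB7, which gives the immunoproteasome that cuts peptides for antigen presentation. The genes described here are those with a single symbol made of PSM, a letter from A to G and a number, without PSMD3. They numbered 45 of 19141 genes on the array and were read from 80 probe sets, with the brightest probe set of each gene used throughout.

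DCIS.COM (lacking ER, PR and HER2) and SUM225 (HER2-positive) are human cell lines that the study calls ductal carcinoma in situ lines. They were injected into the mammary ducts of young adult immunodeficient NSG mice, the MIND xenograft model, and glands were collected at 2, 6 and 10 weeks. EpCAM-positive cells were sorted magnetically, those of several mice pooled for each replicate, and their RNA was hybridised to human expression arrays, with 3 arrays per line and time and 18 in all. Each line is a single established cell line, the host is a mouse whose cells the sort could leave behind, and all groups shared host and sort. Values are log2 intensities after RMA, so 1 unit is a doubling, and levels of different genes are not compared. In bulk RNA of this kind, fewer human cells and less of a transcript per cell cannot be told apart.

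The SUM225 group at 2 weeks stood apart. EPCAM, the sorted marker, read 12.73, 11.72 and 8.59 in its replicates 1, 2 and 3, and between 12.11 and 13.04 in the other 15 arrays. Of the members, 30 of 45 (66.7%) followed the EPCAM order in that group, against 28.7% of all genes and 79.6% of genes with a mean level of at least 9, and 5 (11.1%, against 45.6% of all genes) ran the opposite way (PSMA5, PSMA8, PSMC4, PSMD11 and PSME2). The median SD of the members was 0.94 in SUM225 at 2 weeks and between 0.10 and 0.27 in the other groups. In DCIS.COM at 2 weeks EPCAM ranged from 12.11 to 12.68. There 16 members (35.6%) followed its order, against 26.9% of all genes and 60.9% of genes with a mean level of at least 9. The opposite order was found for 3 (6.67%, against 30.2% of all genes), PSMA5, PSMB9 and PSME2. Over 17 leukocyte genes the log2 of the summed level ranged from 10.22 to 11.13 in SUM225 at 2 weeks and from 9.67 to 9.88 at 6 weeks, and in DCIS.COM from 10.38 to 10.62 and from 9.89 to 9.95. On the same scale 7 fibroblast genes ranged from 9.91 to 11.32 and then from 9.43 to 10.30 in SUM225, and from 9.53 to 10.33 and then from 9.21 to 9.66 in DCIS.COM. The 5 adipocyte genes ranged from 8.19 to 9.02 and then from 7.73 to 8.06 in SUM225, and from 8.25 to 8.43 and then from 7.74 to 7.81 in DCIS.COM. The summed level of the 7 endothelial genes went from 8.53 to 9.35 at 2 weeks down to 8.18 to 8.33 in SUM225. In DCIS.COM their summed level went from 8.64 to 8.76 up to 9.63 to 10.08. Their median there ranged from 5.73 to 6.35 and then from 5.45 to 5.81. The means of PECAM1, an endothelial adhesion molecule, and KDR rose in DCIS.COM, while those of CDH5, TEK, VWF, CLDN5 and EMCN fell. PECAM1 was at 6.58 ± 0.18 at 2 weeks and 9.28 ± 0.33 at 6 weeks (SD, n = 3). Epithelial markers (8 genes) ranged from 12.14 to 14.98 in SUM225 at 2 weeks and from 15.09 to 15.25 at 6 weeks. In DCIS.COM they ranged from 14.48 to 15.15 and then from 15.12 to 15.20. Some genes went against their list in SUM225. The means of KRT14 and KRT5 fell from 10.25 to 7.58 and from 7.22 to 5.99, while the other epithelial genes rose. The fibroblast gene COL1A2 rose from 7.16 to 7.81, while the other fibroblast genes fell. PECAM1 rose there from 6.23 to 6.47, while the other endothelial genes fell. In DCIS.COM the leukocyte gene CD14 rose from 6.10 to 6.83, while the other leukocyte genes fell. The median of the leukocyte genes ranged from 5.94 to 6.83 in SUM225 at 2 weeks and from 5.39 to 5.55 at 6 weeks. The array medians over all probe sets were near these levels and also fell, from 5.61 to 5.84 at 2 weeks to 5.45 to 5.51. The part of these shifts in the results below was not tested, and counts without single arrays are given beside the comparisons.

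**Figure D1:**
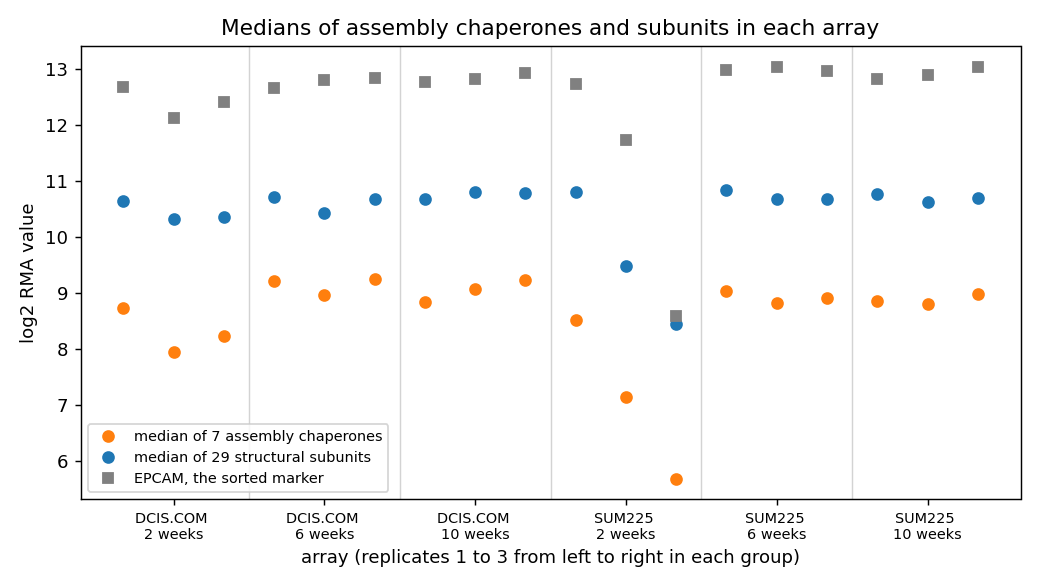
Median log2 value of the 7 assembly chaperones and the 29 structural subunits in each of the 18 arrays, with EPCAM. In SUM225 at 2 weeks the chaperone median was 8.52, 7.14 and 5.68 in replicates 1, 2 and 3, while no other array was below 7.95.

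Promoters were available for 39 of the 45 members, as windows of 250 bases before to 50 after the start (RefSeq, GRCh38.p14). They were searched on both strands for 2 elements known to drive proteasome genes. The antioxidant response core TGACNNNGC, bound by NRF1 (NFE2L1) and NRF2, was in 30.8% of member promoters and in 13.6% of 27305 promoters. The interferon-stimulated core GAAANNGAAA, bound by IRF factors, was in 15.4% and 3.65%. The 5 sequences that follow belong to genes whose values the results turn on, each written 5′ to 3′ on the gene's strand over the first 280 bases, with matches to either element in capitals.
PSMG1, chr21:39183422-39183701, minus strand: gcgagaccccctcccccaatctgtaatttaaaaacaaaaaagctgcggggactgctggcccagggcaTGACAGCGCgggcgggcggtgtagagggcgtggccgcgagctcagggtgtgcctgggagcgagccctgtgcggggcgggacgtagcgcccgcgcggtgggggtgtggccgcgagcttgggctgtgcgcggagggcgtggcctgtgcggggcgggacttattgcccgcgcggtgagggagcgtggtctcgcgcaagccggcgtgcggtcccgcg
PSMD9, chr12:121888540-121888819, plus strand: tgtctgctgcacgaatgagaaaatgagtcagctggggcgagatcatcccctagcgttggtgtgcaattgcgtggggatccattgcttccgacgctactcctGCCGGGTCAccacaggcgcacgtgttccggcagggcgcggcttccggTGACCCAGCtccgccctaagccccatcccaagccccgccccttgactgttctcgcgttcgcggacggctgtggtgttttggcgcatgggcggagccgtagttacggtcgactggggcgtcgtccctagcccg
PSME1, chr14:24135944-24136223, plus strand: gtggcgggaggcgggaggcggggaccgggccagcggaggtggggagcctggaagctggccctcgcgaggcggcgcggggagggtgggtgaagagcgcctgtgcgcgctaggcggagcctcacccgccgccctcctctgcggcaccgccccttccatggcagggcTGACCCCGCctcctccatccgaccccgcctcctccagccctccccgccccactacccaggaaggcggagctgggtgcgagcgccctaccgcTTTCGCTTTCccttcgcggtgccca
PSME2, chr14:24146581-24146860, minus strand: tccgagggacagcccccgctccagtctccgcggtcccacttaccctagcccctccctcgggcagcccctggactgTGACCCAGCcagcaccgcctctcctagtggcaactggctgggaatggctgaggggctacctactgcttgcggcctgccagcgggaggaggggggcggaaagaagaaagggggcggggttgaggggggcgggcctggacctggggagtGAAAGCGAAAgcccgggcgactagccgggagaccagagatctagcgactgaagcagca
PSMB10, chr16:67936821-67937100, minus strand: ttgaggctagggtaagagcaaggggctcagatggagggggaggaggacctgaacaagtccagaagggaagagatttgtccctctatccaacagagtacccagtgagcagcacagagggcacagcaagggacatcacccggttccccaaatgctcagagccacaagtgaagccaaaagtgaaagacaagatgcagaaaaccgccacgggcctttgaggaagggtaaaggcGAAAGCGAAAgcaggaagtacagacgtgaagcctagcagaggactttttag

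Of the assembly chaperones, 4 of the 6 with a promoter (PSMD5, PSMD9, PSMG1 and PSMG2) held the NRF1 and NRF2 core, against 4 of 25 core and cap subunits. PSME1 and PSME2 each held both elements, and PSMB10 held the interferon element 21 bases before its start. These matches describe letters in a window and show no binding.

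In DCIS.COM, the 6-week arrays were set against those of 2 weeks first. All 7 assembly chaperones rose, by 0.66 to 1.07 on the log2 scale. All of them but PSMG1 followed the EPCAM order among the 2-week arrays of this line. Of 29 structural subunits, 1 rose and 4 fell. The difference between these groups of genes was not tested, and both counts moved with the processing: over 15 alternatives 0 to 7 chaperones and 0 to 19 structural subunits were called higher. In all, 11 members rose and 5 fell at an adjusted p under 0.05, or 24.4% and 11.1%. The background over all genes was 22.5% higher and 20% lower, and over genes with a mean of at least 9, as 32 of the 45 members have, 39.3% rose and 5.81% fell. The median change was 0.33 for the members, -0.14 for all genes and 0.47 for the bright genes. Members whose groups did not overlap numbered 16 higher and 7 lower, against 26.9% and 35% of all genes.

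PSMG1, which pairs with PSMG2 to start the alpha ring, read 7.33, 7.17 and 7.37 at the start and 8.23, 8.16 and 8.68 at 6 weeks. The groups did not overlap, and the difference was 1.07 ± 0.17 (SE, adjusted p = 0.00611, n = 3 per group). Its partner PSMG2 rose by 0.84 ± 0.21 (adjusted p = 0.0197). PSMG3 and PSMG4, which form the second chaperone pair of the alpha ring, rose by 0.83 and 0.98 (adjusted p = 0.0201 and 0.0306). Among the chaperones of the 19S base, PSMD5 read 8.19, 7.72 and 8.02 at 2 weeks and 8.81, 8.72 and 8.94 at 6 weeks, a rise of 0.85 ± 0.16 (adjusted p = 0.00978). PSMD10 (gankyrin) and PSMD9 rose by 0.91 and 0.66. The inhibitor PSMF1 (PI31) rose by 0.72 ± 0.16, and PSMD8, a 19S lid subunit, by 0.78 ± 0.19. Second probe sets differed: that of PSMD9 changed by -0.01, that of PSMD5 by -0.17, that of PSMF1 by -0.15, and 1 of the 3 others of PSMG4 fell by 0.59.

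**Figure D2:**
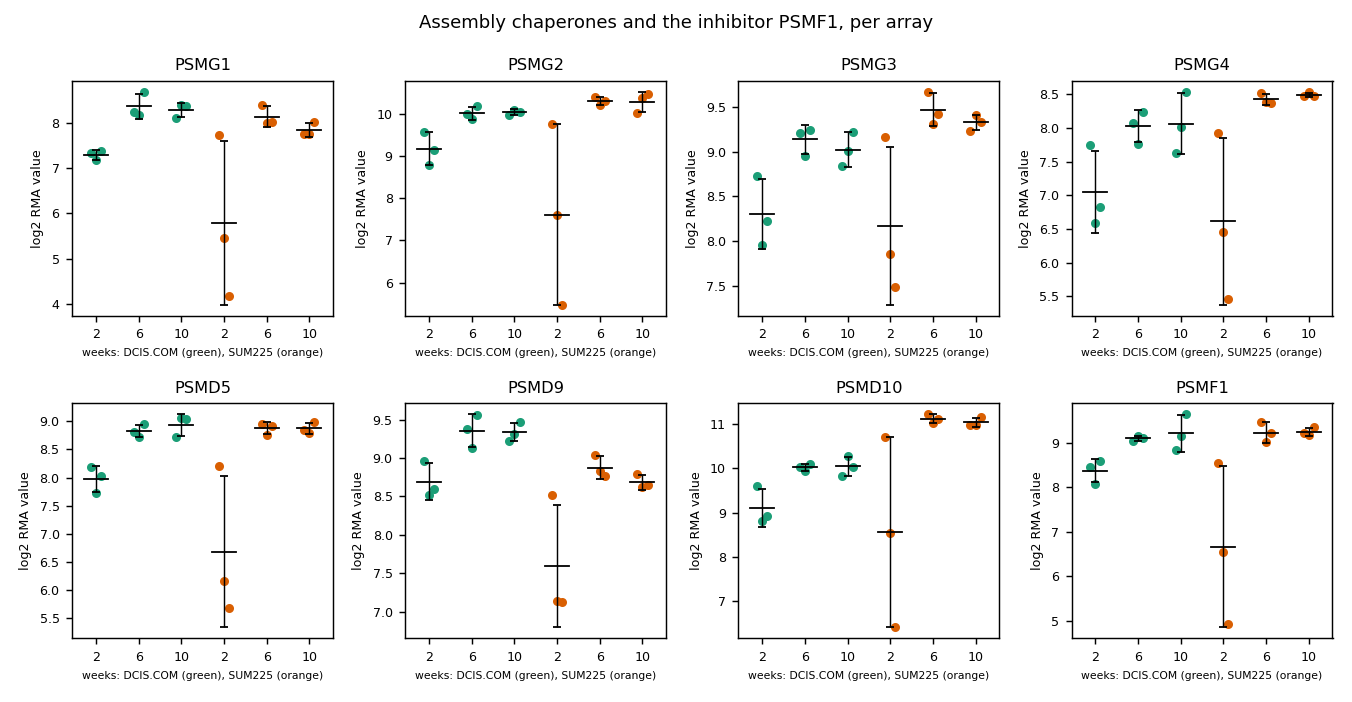
Log2 RMA value of the 7 assembly chaperones and PSMF1 in each array, by line and week, with the mean (line) and SD (bar) of 3 arrays. In DCIS.COM, PSMG1 lay between 7.17 and 7.37 at 2 weeks and between 8.16 and 8.68 at 6 weeks.

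The members that fell in DCIS.COM were spread over the complex. PSMA5 of the alpha ring fell by 0.66, PSMB4 of the beta ring by 0.51, the ATPase PSMC4 by 0.56 and PSMD1, the large scaffold of the 19S base, by 0.77 ± 0.22 (adjusted p = 0.0293). The other probe sets of PSMB4 went the other way without passing the test, and that of PSMD1 changed by -0.02. The largest fall was that of PSME2, given with the activators below. All 7 chaperones stayed positive under each of 15 alternatives, with medians from 0.35 to 1.05, but their calls did not hold: 0 were called with all 18 arrays in 1 fit, 1 with a second quantile normalization, 4 with the median of each gene's probe sets, and 2 without DCIS.COM 2 weeks replicate 2 or 3 or without 6 weeks replicate 1 or 3. The number of positive structural subunits went from 22 of 29 to 10 with a second quantile normalization, and 19 of them were called higher with array weights and 12 without 2 weeks replicate 1. The count of called members was 30 without DCIS.COM 2 weeks replicate 1, 5 without replicate 2, 5 without replicate 3, and 2 without DCIS.COM 6 weeks replicate 1 or 3. The share of all genes called in these fits was not counted.

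In SUM225, the differences from 2 to 6 weeks and their errors were larger. There 8 members rose and 5 fell, against 21.7% and 26.5% of all genes and 29% and 5.31% of bright genes. The member median was 1.12, that of all genes -0.38 and that of bright genes 1.75. Groups did not overlap for 24 members higher and 9 lower, against 33.2% and 43.8% of all genes. PSMF1 read 8.54, 6.55 and 4.93 at 2 weeks and 9.46, 9.01 and 9.21 at 6 weeks, a rise of 2.56 ± 0.79 (adjusted p = 0.0433). PSMG1 rose by 2.35, PSMD5 by 2.19, PSMD8 by 1.95 and PSMG4 by 1.81, and PSMB7, PSMG3 and PSMD9 also rose. PSMG2 and PSMD10 differed by 2.68 and 2.56 without passing (adjusted p = 0.0509 and 0.0561). PSMD1 fell by 1.20, PSMD11 by 0.84, PSMC4 by 0.81 and PSMB9 by 0.72. These calls changed with the arrays kept. None of the members was called without SUM225 2 weeks replicate 2 or 3, or without any 1 of the 6-week arrays. Without SUM225 2 weeks replicate 1, 41 were called. The share of all genes called without single arrays was not counted. With only replicate 1 kept at 2 weeks, 1 rose and 6 fell. A second quantile normalization left 0 calls. The other probe set of PSMD9 fell by 1.10 (adjusted p = 0.0382), against the rise of the brightest. The other probe sets of PSMD1 and PSMD5 also had the opposite sign to the brightest. For PSMG4, 2 of 4 probe sets had its sign, and for PSMF1 and PSMB7 2 of 2.

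The ring and cap subunits showed fewer calls than their number of positive values. In DCIS.COM the 7 alpha ring genes ranged from -0.66 to 0.49 (median 0.02) and the 7 constitutive beta ring genes from -0.51 to 0.50 (median 0.17), with 1 fall in each. The 6 ATPases, which form the motor of the cap, ranged from -0.56 to 0.48 (median 0.17) with 1 fall, and the 10 non-ATPase subunits from -0.77 to 0.78 (median 0.26) with 1 rise and 1 fall. In SUM225 the medians were 0.52 for the alpha ring, 0.85 for the beta ring, 0.35 for the ATPases and 1.45 for the non-ATPase subunits, and 2 of the 29 structural subunits rose and 3 fell. PSMA8, the testis form of an alpha subunit, was dim throughout, between 2.42 and 3.56.

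**Figure D3:**
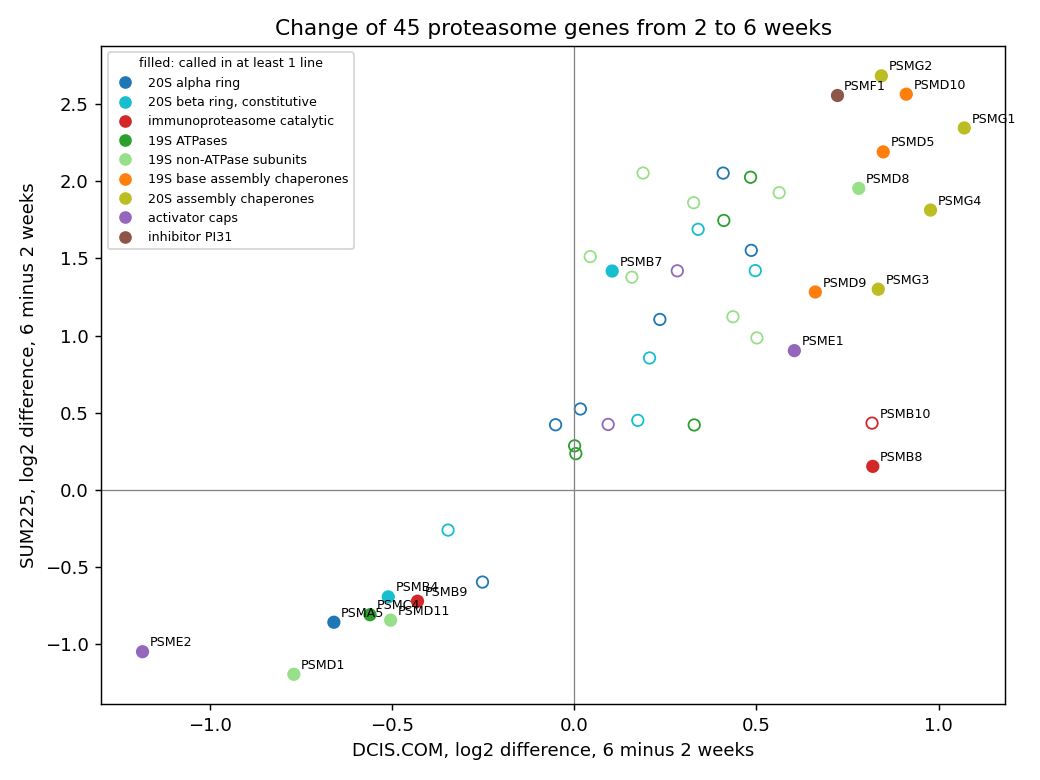
Log2 difference, 6 minus 2 weeks, for DCIS.COM (x axis) and SUM225 (y axis) for 45 genes, coloured by role and filled where called in at least 1 line. The assembly chaperones lie to the upper right, from 0.66 to 1.07 in DCIS.COM, and PSME2 and PSMD1 to the lower left.

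Of the 45 members, 44 (97.8%) had the same sign in both lines, PSMA3 being the exception, against 90.2% of all genes and 92.5% of bright genes. The 7 called higher in both (PSMD5, PSMD8, PSMD9, PSMF1, PSMG1, PSMG3 and PSMG4) were 63.6% of the DCIS.COM rises and 87.5% of the SUM225 rises. Over all genes the rises in both lines were 56% and 58.2% of those in each. The 3 called lower in both, PSMC4, PSMD1 and PSME2, were 60% of the falls in each line, against 68% and 51.4% over all genes. No member passed limma's test for a difference between the lines in this change (1 at an unadjusted p under 0.05), against 0.7% of all genes higher and 0.538% lower in SUM225. Without SUM225 2 weeks replicate 1, 27 members passed, and the share of all genes passing in that fit was not counted.

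Of the 3 immunoproteasome subunits, 1 rose in DCIS.COM by 6 weeks and another by 10 weeks, and 1 fell in SUM225 by 6 weeks. PSMB8, which replaces PSMB5, read, in the 2-week DCIS.COM arrays, 8.32, 7.71 and 7.45, then 8.73, 8.63 and 8.59 by 6 weeks and lastly 8.59, 8.84 and 9.17 by 10 weeks. The rise was 0.82 ± 0.21 at 6 weeks (adjusted p = 0.0234) and 1.04 ± 0.25 at 10 weeks (adjusted p = 0.0221), and neither later group overlapped the first. PSMB10, which replaces PSMB7, read 7.76, 6.98 and 7.69 at 2 weeks, 8.86, 8.03 and 7.99 at 6 weeks, and 8.27, 8.77 and 9.09 at 10 weeks. Its difference was 0.82 ± 0.28 at 6 weeks (adjusted p = 0.0506) and its rise 1.23 ± 0.27 at 10 weeks (adjusted p = 0.0176). PSMB9, which replaces PSMB6, read 5.29, 6.32 and 6.09 at 2 weeks, 5.70, 5.52 and 5.19 at 6 weeks, and 5.59, 6.16 and 5.55 at 10 weeks, with overlapping groups and no call.

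In SUM225, PSMB8 read 8.60, 7.70 and 7.50 at 2 weeks, 8.32, 8.09 and 7.84 at 6 weeks, and 8.40, 8.46 and 8.27 at 10 weeks, so the groups overlapped. PSMB10 read 8.62, 7.99 and 7.25, then 8.69, 8.45 and 8.02, then 8.88, 8.57 and 8.37, also overlapping. PSMB9 read 6.64, 6.40 and 6.83 at 2 weeks and 5.94, 5.92 and 5.84 at 6 weeks, a fall of 0.72 ± 0.21 (adjusted p = 0.0404), and 6.54, 6.25 and 5.76 at 10 weeks, where it no longer passed. The signs of PSMB8 and PSMB10 in SUM225 turned with the arrays kept at 2 weeks, as given in the closing section.

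Of the constitutive catalytic subunits, PSMB7 was called over time, in SUM225, and the others were not. PSMB5 read, in the 2-week DCIS.COM arrays, 10.63, 10.45 and 10.43, then 10.77, 10.60 and 10.67 by 6 weeks and lastly 10.48, 10.55 and 10.79 by 10 weeks. In SUM225 it read 11.06, 10.44 and 10.72, then 11.26, 11.13 and 11.18, then 11.09, 11.05 and 11.21. PSMB6 read, in the 2-week DCIS.COM arrays, 9.65, 9.82 and 9.52, then 9.29, 9.42 and 9.24 by 6 weeks and lastly 9.45, 9.30 and 9.64 by 10 weeks. Neither PSMB5 nor PSMB6 passed the test in any comparison of weeks. PSMB6 in SUM225 read 9.52, 9.47 and 9.58, then 9.06, 9.30 and 9.42, then 9.06, 9.09 and 9.19. PSMB7 read, in the 2-week DCIS.COM arrays, 10.93, 10.94 and 10.91, then 11.22, 10.80 and 11.07 by 6 weeks and lastly 11.05, 11.10 and 11.28 by 10 weeks. Its SUM225 values of 10.23, 9.11 and 8.19 at 2 weeks lay below the 10.68, 10.57 and 10.54 of 6 weeks and the 10.51, 10.51 and 10.61 of 10 weeks, and the rise to 6 weeks was 1.42 ± 0.47 (adjusted p = 0.048).

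**Figure D4:**
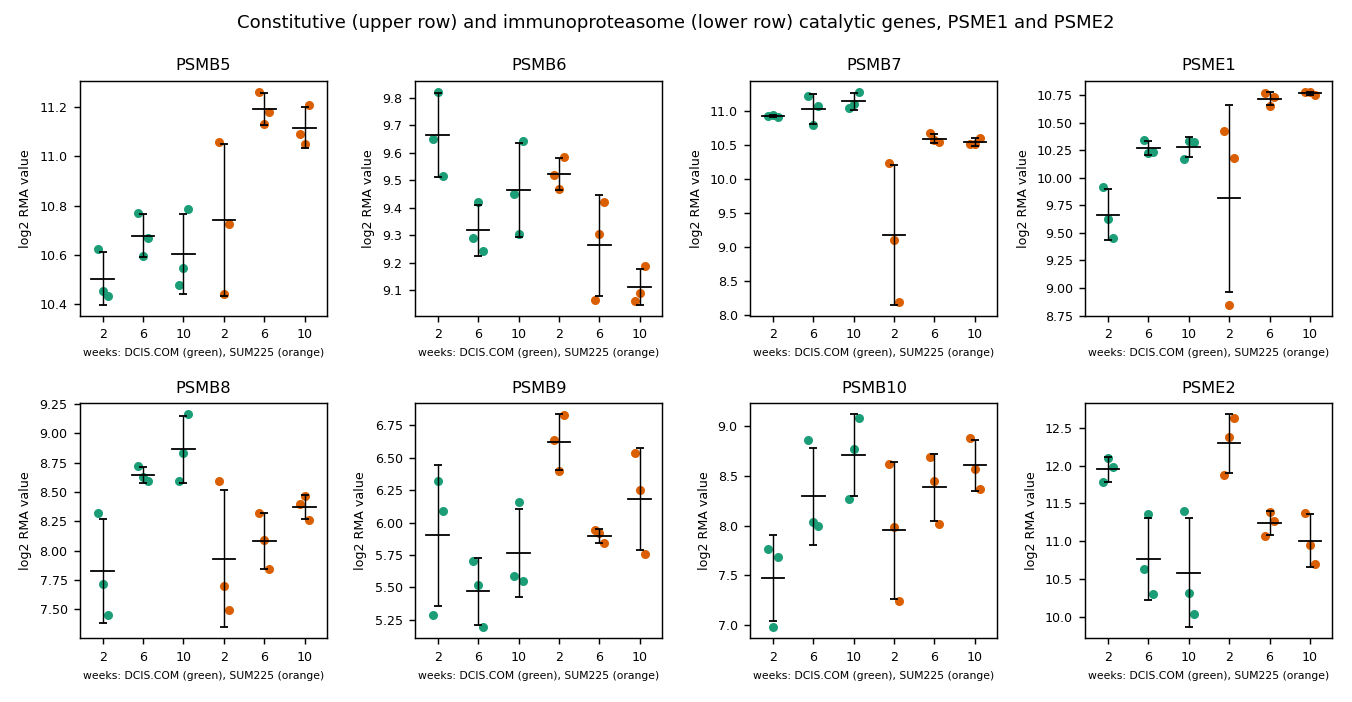
Log2 RMA value in each array of PSMB5, PSMB6 and PSMB7 (upper row), PSMB8, PSMB9 and PSMB10 (lower row), and of PSME1 and PSME2, with mean (line) and SD (bar) of 3 arrays; each panel has its own axis. PSME2 was between 11.78 and 12.10 in DCIS.COM at 2 weeks and between 10.31 and 11.36 at 6 weeks.

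PSME1 and PSME2 encode the 2 chains of the PA28 activator, which interferon induces together. In DCIS.COM PSME1 rose and PSME2 fell. PSME1 read, in the 2-week DCIS.COM arrays, 9.92, 9.62 and 9.46, then 10.35, 10.23 and 10.24 by 6 weeks and lastly 10.17, 10.33 and 10.33 by 10 weeks, a rise of 0.60 ± 0.16 to 6 weeks (adjusted p = 0.023). PSME2 read 11.78, 12.10 and 11.98, then 10.64, 11.36 and 10.31, then 11.40, 10.31 and 10.04, a fall of 1.18 ± 0.25 to 6 weeks (adjusted p = 0.0129). In SUM225, PSME2 read 11.87, 12.38 and 12.63 at 2 weeks, 11.08, 11.39 and 11.27 at 6 weeks, and 11.38, 10.95 and 10.70 at 10 weeks, a fall of 1.05 ± 0.25 to 6 weeks (adjusted p = 0.0382). PSME1 there read 10.42, 8.85 and 10.17, then 10.77, 10.65 and 10.73, then 10.77, 10.77 and 10.75, with no call (adjusted p = 0.0917 at 6 weeks). PSME2 kept its sign from 2 to 6 weeks under all 15 alternatives run in DCIS.COM and all 16 in SUM225. PSME3 and PSME4, the nuclear activators PA28 gamma and PA200, were not called over time by their brightest probe sets. Other probe sets were. Of 4 for PSME4, 1 was called higher in DCIS.COM and 2 in SUM225, both at 6 and at 10 weeks against 2. Of 3 for PSME3, at 10 against 2 weeks, 1 was called higher in DCIS.COM and 1 lower in SUM225.

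From 6 to 10 weeks limma called no member in either line, nor did SAM, and at an unadjusted p under 0.05 there were 0 in DCIS.COM and 1 in SUM225. Among all genes the share called was 0.0157% higher and 0% lower for DCIS.COM, and 0% higher and 0.00522% lower for SUM225. The member median was 0.05 in DCIS.COM and -0.06 in SUM225. The difference of this change between the lines also called no member (1 at an unadjusted p under 0.05), against 0.00522% and 0.0157% of all genes. Against 2 weeks, the 10-week arrays gave 14 members (31.1%) higher and 3 (6.67%) lower in DCIS.COM. Of all genes 21.1% and 15.9% were called there, and of bright genes 37.4% and 4.96%. SUM225 gave 10 members (22.2%) higher and 5 (11.1%) lower, on the same 2-week arrays as above. Of all genes 25.1% and 33.6% were called there, and of bright genes 38.7% and 6.12%. All 7 chaperones were again among the DCIS.COM rises, with PSMC1 and PSMC6 of the ATPase ring added, at 0.50 and 0.74.

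Between the lines, members were called at 6 and 10 weeks. At 2 weeks limma called none (4 at an unadjusted p under 0.05, and 4 by SAM), against 0.0784% and 2.37% of all genes higher and lower in SUM225. At 6 weeks 11 members were higher and 5 lower in SUM225, against 19.7% and 17.2% of all genes and 29.9% and 29.7% of bright genes. At 10 weeks 6 were higher and 6 lower, against 16.4% and 15.9% of all genes and 25.5% and 27.7% of bright genes. All 6 of the 10-week higher calls were also called at 6 weeks: PSMA2, PSMA7, PSMB2, PSMB5, PSMD10 and PSME1. PSMB7, PSMD9 and PSME4 were lower at both times.

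Among the members, PSME4 showed the largest line difference at 6 and at 10 weeks. It read 10.99, 10.78 and 10.99 in DCIS.COM at 6 weeks and 9.78, 9.64 and 9.52 in SUM225, with no overlap at 10 weeks either, where SUM225 lay between 9.63 and 9.74 and the lowest DCIS.COM value was 10.76. SUM225 was lower by 1.27 ± 0.12 (adjusted p = 3.1e-05) and 1.21 ± 0.13 (adjusted p = 9.67e-05). PSMD10, the chaperone gankyrin, read 10.03, 9.94 and 10.09 in DCIS.COM and 11.23, 11.03 and 11.11 in SUM225 at 6 weeks, a difference of 1.10 ± 0.11 (adjusted p = 4.69e-05), and 0.99 ± 0.15 at 10 weeks. PSMA7, an alpha ring subunit, read 10.54, 10.48 and 10.45 in DCIS.COM and 11.59, 11.45 and 11.42 in SUM225 at 6 weeks (adjusted p = 7.04e-05) and was higher in SUM225 by 0.83 ± 0.14 at 10 weeks, and PSMD7, a 19S lid subunit, by 0.76 ± 0.11 at 6 weeks.

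Among the catalytic genes, PSMB5 was higher in SUM225 by 0.51 at both times (adjusted p = 0.00458 and 0.0188), while PSMB7 was lower by 0.43 and 0.60. PSMB8 was lower by 0.57 ± 0.13 at 6 weeks (adjusted p = 0.0102) and differed by -0.49 at 10 weeks (adjusted p = 0.0536). PSMB9 was higher by 0.43 at 6 weeks. PSMB10 differed by 0.09 (95% confidence interval -0.46 to 0.64) at 6 weeks. PSME4, PSMA7, PSMA2, PSMD10 and PSMB5 kept their sign under all 15 alternatives at both times. A single fit of all 18 arrays, whose error took in the uneven group, called 3 members at 6 weeks and 4 at 10 weeks. Leaving out SUM225 6 weeks replicate 3 left 10 calls, and leaving out SUM225 10 weeks replicate 2 or 3 left 7.

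**Figure D5:**
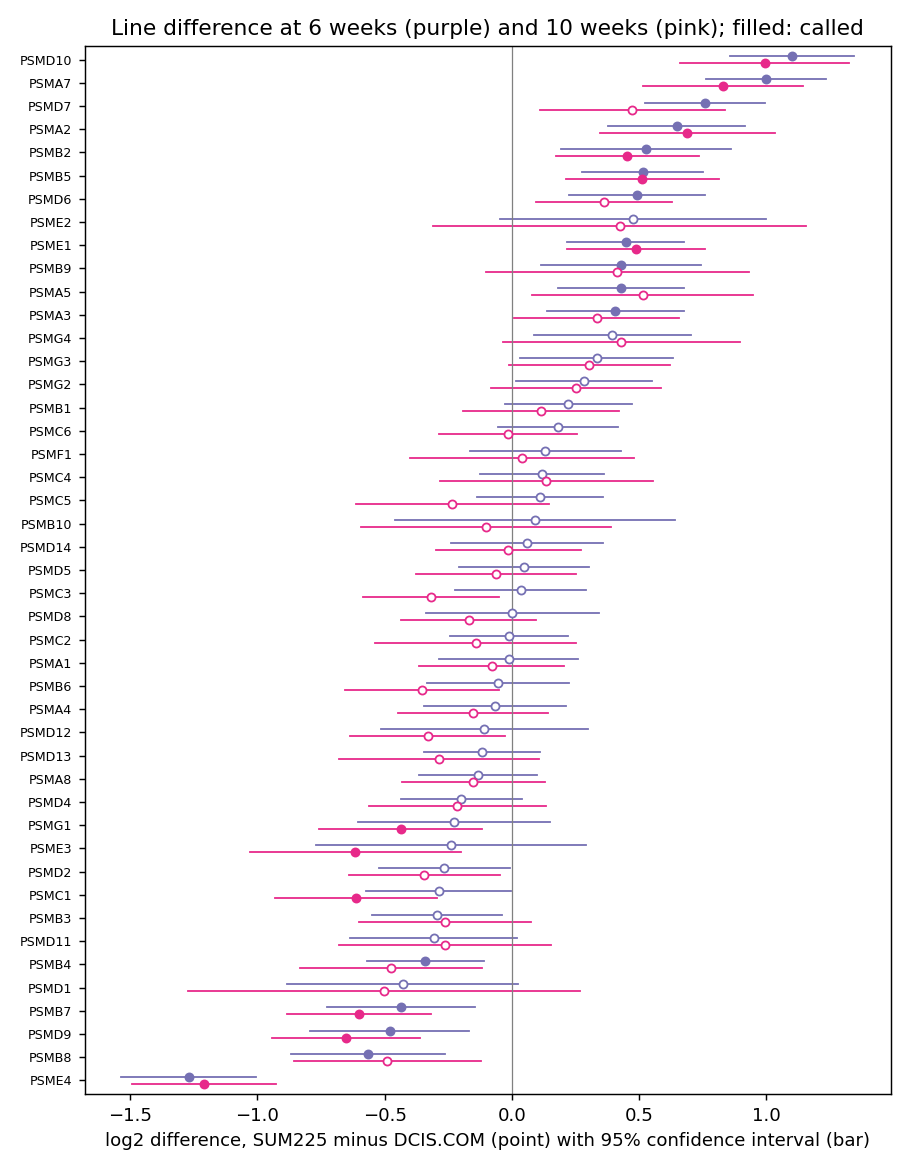
Log2 difference between SUM225 and DCIS.COM for 45 genes at 6 weeks (purple) and 10 weeks (pink), as points with 95% confidence intervals, filled where called. PSMD10 and PSMA7 stand at the upper end, near 1 at 6 weeks, and PSME4 at the lower end.

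Among 28 proteasome partners, 8 rose and 2 fell by 6 weeks in DCIS.COM, where the background was 22.5% and 20% of all genes, and 6 rose and 2 fell in SUM225, against 21.7% and 26.5%. TXNL1, a thioredoxin bound to the 19S cap, rose by 1.40 and PAAF1, another chaperone of the base, by 0.76, while UBA1, the main ubiquitin-activating enzyme, fell to 0.354 of its level (adjusted p = 0.00523). NFE2L1, the transcription factor that induces proteasome genes when degradation is impaired, rose by 0.54 in DCIS.COM (adjusted p = 0.0344) and differed by -0.15 in SUM225 (adjusted p = 0.608). Of 17 antigen processing and interferon genes, 7 were called higher and 1 lower for DCIS.COM, and 2 higher and 0 lower for SUM225, against the same shares of all genes. GBP1, an interferon-induced GTPase, rose by 2.23, the peptidase ERAP1 by 1.09, the peptide transporter gene TAP1 by 0.86, and the regulator IRF1 by 0.57 in DCIS.COM. The gene called lower was HLA-F, a non-classical class I gene, which fell by 0.66 (adjusted p = 0.0115), and ISG15, a ubiquitin-like modifier, differed by -0.27 (adjusted p = 0.294). In SUM225, IRF1 differed by 0.04 (adjusted p = 0.892) and ERAP1 rose by 1.39.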

How the data were processed

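Human Affymetrix arrays measured EpCAM-sorted RNA from MIND xenografts. The authors deposited log2 values after RMA (Partek), and 54613 probe sets that are not controls were tested. Tables of the authors' own comparisons hold fold ratios, SAM scores and q-values in percent. These deposited ratio, score and percent columns were not used, and only their gene names were. A symbol was taken for 36787 probe sets, giving 19141 genes, and 16909 probe sets in neither table were left unnamed. PSMA6 and PSMB11 were not analysed here.

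Pairs of groups were compared with limma 3.58.1 in R 4.3.3 (lmFit, eBayes) on their 6 arrays, Benjamini-Hochberg adjusted over all probe sets, with a threshold of 0.05, and differences between lines in a change with an interaction term. Figures and summaries used Python 3.11.15. The fit was tested on simulated data. The number of arrays limits the precision, and nothing in the labels shows separate cultures, so p-values measure the spread between these arrays. Named genes were all members by role, the largest called changes per comparison, fixed catalytic and PA28 genes, and up to 6 partners per list with NFE2L1 and IRF1, and 1 further gene of that rule is not reported here. Members and lists were chosen with earlier results of these data known. Alternatives covered scaling, dim probe sets, pooled variance, array weights, the methods' SAM, a replicate block, probe set choice and left-out arrays. Single marker genes other than EPCAM, and HLA-F and ISG15, were named after their values were seen. Promoters came from RefSeq (GRCh38.p14).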

Additional observations from a re-analysis of the deposited data

How the results depend on the processing

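The calls from 2 weeks depended on processing more than those between lines at 6 and 10 weeks. Called members at 6 against 2 weeks (16 for DCIS.COM, 13 for SUM225) and at 10 against 2 weeks (17 and 15) became 8, 0, 6 and 6 with quantile normalization again, 1, 37, 5 and 36 with all 18 arrays in 1 fit, 38, 44, 37 and 43 with array weights (which did not converge in several fits), and 26, 42, 26 and 42 with the methods' SAM. In SUM225 the lower SAM limit fell at the middle of the ordered statistics. It therefore called 27306 of 54613 probe sets lower at both times, and its lower calls there were set by that limit. The upper limit did not fall at the middle, and most of the members called there were called higher. SUM225 gave 5 and 9 with arrays centred on their medians, and 7 and 5 without replicates 2 and 3 of SUM225 2 weeks together. At 6 weeks it gave 22 with adjustment over 1 probe set per gene, and at 10 weeks 8 with a variance trend and robust moderation. Between the lines, 0 calls at 2 weeks became 10 with all 18 arrays, 36 with array weights, 4 with SAM, 1 with the median of probe sets and 1 without both replicates. The 16 calls at 6 weeks and 12 at 10 weeks became 3 and 4 with all 18 arrays. Array weights also gave 32 members whose change to 6 weeks differed between the lines. The cause of these shifts was not tested.

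Replicate numbers were not shown to pair the samples. In their deviations from group means, same-numbered arrays correlated below 0.1 in at least 1 pair of every comparison. Other pairs were higher. Between the lines at 2 weeks replicates 1, 2 and 3 gave 0.63, 0.38 and 0.05. For SUM225 at 6 against 2 weeks they gave 0.32, 0.35 and 0.02. These values do not settle whether the samples were paired. With the replicate block, the calls were 29 in SUM225 at 6 against 2 weeks, 5 in DCIS.COM and 22 in SUM225 at 10 against 2 weeks, and 2 between lines at 2 weeks.

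Leaving out 1 array at a time gave 2 to 30 calls (DCIS.COM) and 0 to 41 (SUM225) at 6 against 2 weeks, and 1 to 29 and 0 to 41 at 10 against 2 weeks, 0 to 21, 10 to 15 and 7 to 16 between the lines at 2, 6 and 10 weeks, and 0 to 27 for the difference of changes to 6 weeks. At 10 against 2 weeks the highest counts, 29 and 41, came without replicate 1 of the 2-week group; DCIS.COM gave 2 without 2 weeks replicate 2, 3 without replicate 3, and 1 without 10 weeks replicate 2 or 3, and SUM225 gave 1 without 2 weeks replicate 3 and 0 without any other array. Between the lines at 2 weeks, 21 came without SUM225 replicate 1. Calls from 6 to 10 weeks stayed at 0 under each alternative run.

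Reversed signs are given here for PSMB8, PSMB9, PSMB10, PSME1 and PSME2 only. Among these genes they belonged to values that had not passed the test. With quantile normalization again, PSMB8, PSMB10 and PSME1 in SUM225 were -0.48, -0.20 and -0.099 at 6 weeks and -0.24, -0.022 and -0.055 at 10 weeks against 2, and PSME1 in DCIS.COM was -0.0024 from 6 to 10 weeks. Without replicates 2 and 3 of SUM225 2 weeks, PSMB8 and PSMB10 were -0.51 and -0.24 at 6 weeks and -0.22 and -0.017 at 10 weeks, and PSME2 was -0.081 between the lines at 2 weeks. With centred arrays, PSMB9 in DCIS.COM at 10 against 2 weeks was 0.035 and PSMB8 between the lines at 2 weeks -0.013. Array weights gave PSME1 -0.70 between the lines at 2 weeks and PSMB10 -0.15 at 6 weeks. With single arrays left out, PSME1 and PSME2 from 6 to 10 weeks in DCIS.COM ranged from -0.0199 to 0.060 and from -0.59 to 0.11, PSMB9 at 10 against 2 weeks there from -0.44 to 0.075, and PSMB8 in SUM225 at 6 weeks from -0.064 to 0.48. Between the lines, PSMB8 and PSME1 ranged at 2 weeks from -0.23 to 0.35 and from -0.15 to 0.63, and PSMB10 from -0.060 to 0.37 at 6 weeks and from -0.32 to 0.088 at 10 weeks.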
